A study of Mus musculus with 18 samples.

Results

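The genes described here are 10 components of the RB–E2F switch and its inhibitors, measured in mouse liver after chemical injury. They comprise 3 E2F transcription factors (E2f1, E2f2 and E2f8), 2 pocket proteins (Rb1 and Rbl1) and 5 inhibitors of cyclin-dependent kinases (Cdkn1b, Cdkn2a, Cdkn2b, Cdkn2c and Cdkn2d). They were taken by name from the 34937 genes counted in each library, and all 10 passed the filter on low counts that left 17789 genes for testing. Poly-A RNA was sequenced from 18 livers, 3 mice in each of 6 groups. MycER is a Myc protein fused to a hormone-binding part of the oestrogen receptor and is switched on by tamoxifen. All groups are labelled as livers after injury, which was caused by an intraperitoneal dose of carbon tetrachloride, 0.5 µL per g body weight. Group 12 was taken on day 12 without MycER activation and group 12ON on day 12 with it, activation being by 1 mg tamoxifen a day. Groups 1OFF, 2OFF, 3OFF and 7OFF are labelled as 1, 2, 3 and 7 days after injury without activation. The labels do not say whether MycER had been active earlier in the OFF mice, nor whether group 12 received tamoxifen, nor which cells carry the construct, nor the sex of the mice. The study compared 12ON with 12, and then each of the OFF groups with 12ON. An OFF group differs from 12ON in both the day and the activation state, and these cannot be told apart.

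The pocket proteins, among them RB (Rb1) and its relative p107 (Rbl1), bind E2F factors and can repress genes of DNA synthesis. Which pocket protein holds these genes silent in resting cells was not tested. Cyclin-dependent kinases phosphorylate the pocket proteins and free the E2Fs. The INK4 proteins (Cdkn2a, Cdkn2b, Cdkn2c, Cdkn2d) block the kinases that pair with D cyclins, and p27 (Cdkn1b) blocks those that pair with cyclins E and A. E2f1 and E2f2 are activators, whereas E2f8 is an atypical E2F that represses the same targets without a pocket protein. Adult hepatocytes are mostly quiescent and re-enter the cycle after injury. E2f1, Rbl1 and E2f8 are themselves known targets of E2F factors.

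In the annotation the counts were made on (Ensembl, GRCm38), the E2F genes are E2f1 (ENSMUSG00000027490, chr2:154559407-154569892, minus strand), E2f2 (ENSMUSG00000018983, chr4:136172394-136196057, plus strand) and E2f8 (ENSMUSG00000046179, chr7:48866429-48881596, minus strand). The pocket protein genes are Rb1 (ENSMUSG00000022105, chr14:73183673-73325822, minus strand) and Rbl1 (ENSMUSG00000027641, chr2:157145893-157204534, minus strand). The inhibitor genes are Cdkn1b (ENSMUSG00000003031, chr6:134920401-134925513, plus strand), Cdkn2a (ENSMUSG00000044303, chr4:89274471-89294653, minus strand), Cdkn2b (ENSMUSG00000073802, chr4:89306289-89311032, minus strand), Cdkn2c (ENSMUSG00000028551, chr4:109660876-109667189, minus strand) and Cdkn2d (ENSMUSG00000096472, chr9:21288463-21291209, minus strand). Counts were summed over all exons of a gene, untranslated parts included.

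The RefSeq promoter table (GRCm38.p6) held windows of 250 bases before to 50 after a gene's start for 9 of the 10 genes, 12 windows in all since some genes have more than 1 start. A core E2F sequence (TTCCCGC or TTGGCGC or TTCGCGC or TTGCCGC, on either strand) lay in 5 of those 12 windows, against 9.57% of all 32851 windows of that length. These were 1 window each of Cdkn2a, Cdkn2c, Rbl1, E2f2 and E2f8. The RefSeq starts can differ from the Ensembl starts given above. The E2f1 window (chr2:154569377-154569676) and the Cdkn2c window with the core (chr4:109666707-109667006) lie inside the Ensembl genes. The lack of a core in the E2f1 window therefore does not describe the bases before its Ensembl start. The 150 bases before the RefSeq start are shown for Rbl1, Cdkn2c and E2f8, with the core in capitals. These are the members with a core upstream of that start and a change in level in the comparisons with 12ON. All 3 are on the minus strand and are written 5′ to 3′: Rbl1 covers chr2:157204535-157204684, Cdkn2c chr4:109666757-109666906 and E2f8 chr7:48881597-48881746.
Rbl1: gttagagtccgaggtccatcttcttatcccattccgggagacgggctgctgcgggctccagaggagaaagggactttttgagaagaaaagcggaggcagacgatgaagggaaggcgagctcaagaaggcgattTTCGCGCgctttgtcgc
Cdkn2c: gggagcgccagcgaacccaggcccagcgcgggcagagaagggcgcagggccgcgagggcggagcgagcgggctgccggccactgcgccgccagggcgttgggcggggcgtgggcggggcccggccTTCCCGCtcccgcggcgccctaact
E2f8: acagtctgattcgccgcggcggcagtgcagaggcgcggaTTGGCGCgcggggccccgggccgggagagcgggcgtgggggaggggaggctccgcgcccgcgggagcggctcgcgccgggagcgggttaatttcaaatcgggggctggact
Counting bases from 0 at the RefSeq start, the core spans -17 to -11 in Rbl1, -25 to -19 in Cdkn2c and -111 to -105 in E2f8. A match is a description of the letters and does not show that a factor binds there.

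Library depth ran from 23.1 to 75.3 M counts, and no 2 libraries of a group agreed within counting noise. The mitochondrial share of counts was 4.80 to 5.25% in group 12, 6.42 to 7.11% in 12ON and 5.54 to 6.19% in 7OFF. In every OFF library it was above group 12, the lowest being 5.36% in 3OFF. A fit with this share as a covariate can therefore take up part of a difference between groups. A call lost in that fit does not tell the share from the group. Levels are given below as CPM, counts relative to a library size scaled by the trimmed mean of M values (TMM), as mean ± SD with n = 3 mice. Albumin was abundant in every library, but the summed level of 10 hepatocyte markers was 112690 to 123670 CPM in group 12 and 33732 to 41760 CPM in 12ON. Of those 10 markers, 9 fell and 1 rose in 12ON. Of 10 cholangiocyte markers 8 rose, their sum being 47.3 to 111.7 CPM in group 12 and 210.6 to 219.5 CPM in 12ON. Of 10 stellate cell and myofibroblast markers 4 rose, and all 10 sinusoidal endothelial markers fell. The hepatocyte, cholangiocyte and endothelial markers moved the other way from 12ON to 3OFF and 7OFF, where 32.3% and 44.0% of all genes were called. In each, 9 of 10 hepatocyte markers were higher and 8 of 10 cholangiocyte markers were lower, and 10 and 8 of the endothelial markers were higher. In both, 4 of the stellate cell and myofibroblast markers were lower and 1 was higher. Of the B and plasma cell markers 3 and 4 were higher, and of the monocyte and macrophage markers 2 and 5 were lower. Of the Kupffer markers 3 were higher in 3OFF, and 1 was higher and 1 lower in 7OFF. In 7OFF 4 of 7 erythroid markers were lower and 1 higher, and 1 of 9 T and NK cell markers was lower. None of these lists had a member called in 1OFF or 2OFF against 12ON, where 1 and 0 of all 17789 genes were called. The summed hepatocyte level was 62545 to 90785 CPM in 3OFF and 79896 to 96301 CPM in 7OFF. None of these marker genes was at 0 in a group. Xist, transcribed in female cells, was at 275.8 to 455.3 CPM in 1 library each of 12, 12ON, 2OFF, 3OFF and 7OFF and below 2 CPM in all others, so 1OFF had no library with high Xist. Myc was 6.23 to 9.54 CPM in group 12 and 5.14 to 6.96 CPM in 12ON, and since MycER is switched on as a protein its transcript does not check the labels. The oestrogen receptor gene Esr1 was 33.5 to 41.2 CPM in group 12 and 9.05 to 11.4 CPM in 12ON. The part that cell composition plays in the differences below was not tested, and in whole liver fewer cells of a type and less RNA per cell cannot be told apart. Adjusted p-values are those of the quasi-likelihood test in edgeR, corrected by the Benjamini-Hochberg method over the 17789 genes. A change is called where that value is below 0.05. They measure the spread between these mice.

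E2f1, an activator E2F, was higher in every 12ON library than in any other library. Its levels were 4.93, 4.20 and 4.05 CPM in group 12 and 10.1, 11.6 and 15.0 CPM in 12ON. The groups did not overlap, and the mean rose from 4.39 ± 0.47 to 12.2 ± 2.50 CPM (log2 fold change 1.48 ± 0.29, SE, adjusted p = 0.000718 by edgeR). In the OFF groups E2f1 was 5.55, 6.62 and 5.53 CPM in 1OFF, 3.46, 10.1 and 4.65 CPM in 2OFF, 3.55, 3.88 and 4.07 CPM in 3OFF, and 3.35, 3.49 and 2.46 CPM in 7OFF. Every OFF library was below every 12ON library, the closest being 2OFF replicate 2. The fall from 12ON was called in 3OFF (log2 -1.68 ± 0.29, adjusted p = 0.000683 by edgeR) and 7OFF (-1.98 ± 0.30, adjusted p = 9e-05). In 1OFF the difference was -1.05 ± 0.29 (adjusted p = 0.123 by edgeR) and in 2OFF -1.02 ± 0.29 (adjusted p = 0.0896), and neither was called.

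E2f2, the other activator, varied as much within groups as between them. It measured 4.41, 7.99 and 4.95 CPM in group 12 and 5.25, 8.0 and 9.98 CPM in 12ON, ranges that overlap. The difference was 0.42 ± 0.39 on the log2 scale (adjusted p = 0.405 by edgeR), and none of the 4 OFF groups differed from 12ON at the threshold. In 7OFF all 3 libraries, 4.16 to 4.92 CPM, were below those of 12ON, with a log2 difference of -0.76 ± 0.39 (adjusted p = 0.129 by edgeR). In 3OFF 1 library stood at 7.75 CPM beside 3.23 and 2.03 CPM. Without 3OFF replicate 1 the difference of 3OFF from 12ON was -1.54 and was called (adjusted p = 0.00489 by edgeR). That replicate is the library at 7.75 CPM, so its omission makes the fall larger by construction and shows only how far 1 library counts. No other omission of 1 library gave this call.

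**Figure D1:**
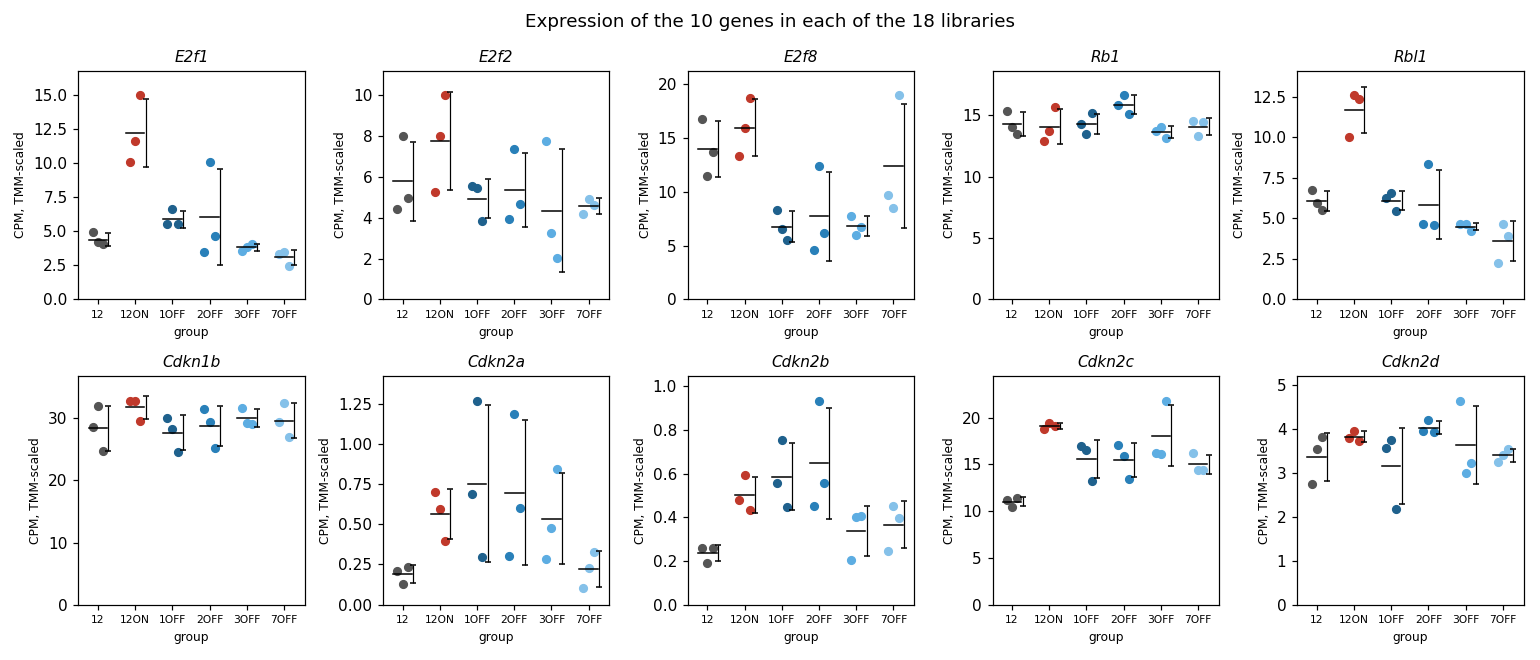
Level of each of the 10 genes (CPM, TMM-scaled, linear axis from 0) in the 18 libraries by group. Points are mice, the horizontal line is the mean and the bar beside it the SD of 3 mice; E2f1 and Rbl1 are higher in every 12ON library than in any other library, whereas Rb1 stays between 12.9 and 16.6 CPM.

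E2f8, the atypical repressor, was 16.7, 11.5 and 13.7 CPM in group 12 and 13.3, 15.9 and 18.7 CPM in 12ON. These ranges overlap, and the difference was 0.20 ± 0.33 on the log2 scale (adjusted p = 0.652 by edgeR). Levels were 8.27, 6.51 and 5.49 CPM in 1OFF, 4.61, 12.4 and 6.13 CPM in 2OFF, and 7.79, 5.97 and 6.75 CPM in 3OFF. All 9 of these libraries were below the 12ON libraries. The fall was called in 3OFF (log2 -1.22 ± 0.33, adjusted p = 0.0115 by edgeR) and missed the threshold in 1OFF (-1.23 ± 0.33, adjusted p = 0.123) and 2OFF (-1.06 ± 0.33, adjusted p = 0.117). In 7OFF the libraries held 9.68, 8.48 and 19.0 CPM, overlapping 12ON, with a difference of -0.37 ± 0.33 (adjusted p = 0.39 by edgeR).

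The count for E2f8 shares sequence with another gene. Gm2788, on the opposite strand, overlaps 274 of the 5443 exon bases of E2f8, and counting ignored strand and gave a read to each gene it overlapped. Reads from the shared bases therefore stand in both totals. Gm2788 averaged 39.9 ± 7.11 CPM in group 12, 6.84 ± 2.77 in 12ON, 7.04 ± 1.28 in 1OFF, 9.08 ± 3.09 in 2OFF, 18.4 ± 1.94 in 3OFF and 39.5 ± 11.0 in 7OFF. It was thus highest in the groups where E2f8 stood high without activation, 12 and 7OFF. As an alternative added after the data were seen, the reads that Gm2788 would place on the shared bases if spread evenly over its exons were taken off. E2f8 then came to 7.38 ± 1.79 CPM in group 12 and 14.8 ± 2.34 CPM in 12ON, ranges that do not overlap, with a log2 difference of 1.01 ± 0.48 (adjusted p = 0.0962 by edgeR). In 3OFF it was 3.81 ± 1.17 CPM, below 12ON by a log2 difference of -1.96 (adjusted p = 0.00694 by edgeR). In 7OFF it was 5.86 ± 4.25 CPM, and the difference from 12ON grew to -1.33 (adjusted p = 0.0345 by edgeR). Reads are rarely spread evenly over a gene, so the size of the correction is uncertain.

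**Figure D2:**
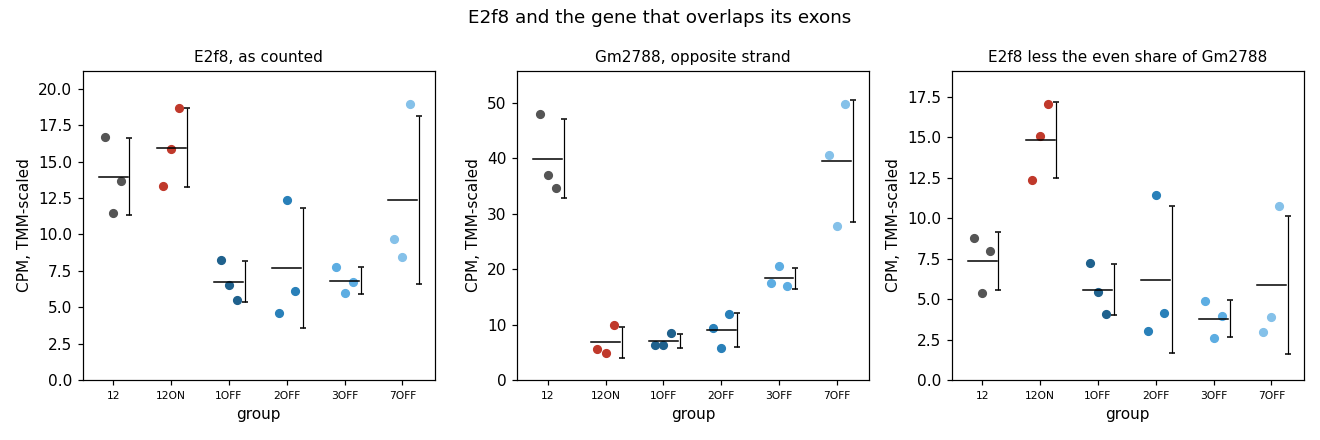
CPM (TMM-scaled, linear axes from 0) of E2f8 as counted, of the overlapping gene Gm2788, and of E2f8 after an even share of Gm2788 was taken off, in the 18 libraries; lines are means and bars SD of 3 mice. Gm2788 is 34.7 to 48.0 CPM in group 12 and 4.84 to 10.0 CPM in 12ON, and the corrected E2f8 level lies at 5.37 to 8.80 CPM in group 12 and 12.4 to 17.0 CPM in 12ON.

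Among the pocket proteins, Rbl1 (p107) moved and Rb1 stayed within a narrow range. Rbl1 was 6.75, 5.94 and 5.51 CPM in group 12 and 10.0, 12.6 and 12.4 CPM in 12ON. All 12ON libraries were above all others, and the log2 fold change from group 12 was 0.95 ± 0.24 (adjusted p = 0.0041 by edgeR). With the mitochondrial share of the libraries as a covariate it was 0.84 and no longer called (adjusted p = 0.115 by edgeR). In the OFF groups Rbl1 was 6.24, 6.58 and 5.46 CPM in 1OFF, 4.65, 8.33 and 4.56 CPM in 2OFF, 4.62, 4.62 and 4.23 CPM in 3OFF, and 2.27, 4.62 and 3.92 CPM in 7OFF. The difference from 12ON was -1.37 ± 0.24 in 3OFF (adjusted p = 0.000659 by edgeR) and -1.68 ± 0.24 in 7OFF (adjusted p = 6.4e-05), both called. It was -0.93 ± 0.24 in 1OFF (adjusted p = 0.108 by edgeR) and -1.0 ± 0.23 in 2OFF (adjusted p = 0.0613), neither called. Rb1 ranged from 12.9 to 16.6 CPM over the 18 libraries, with overlapping groups in each of the 5 main comparisons. Its difference between 12ON and 12 was -0.02 ± 0.09 (adjusted p = 0.885 by edgeR), but scaling by library totals alone turned this to 0.48 and called it (adjusted p = 0.00118). That scaling raised the median of all genes by 0.49 in this comparison, so Rb1 moved with the bulk of genes. Rcbtb2 and Lpar6, on the opposite strand, overlap 896 of the 6015 exon bases of Rb1, and taking off an even share for them left its difference between 12ON and 12 at -0.10 ± 0.10.

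Because a ratio within a library does not depend on scaling, Rbl1 was also set against Rb1 per kilobase of exon. The ratio was 0.442, 0.424 and 0.412 in group 12 and 0.781, 0.923 and 0.794 in 12ON, so that the groups stood apart. In 1OFF, 2OFF, 3OFF and 7OFF it spanned 0.362 to 0.490, 0.295 to 0.503, 0.324 to 0.338 and 0.157 to 0.350, all below 12ON. In all 5 comparisons the groups did not overlap, and the exact two-sided permutation p was 0.1, the smallest that 3 against 3 can give. The mean log2 ratio was 0.96 higher in 12ON than in 12, and lower than in 12ON by 0.96 to 1.75 in the OFF groups. Adjusting the 10 ratio tests for their number could only raise that p. The ratio of E2f8 to E2f1, a repressor beside an activator, was 1.58 to 1.96 in group 12 and 0.722 to 0.792 in 12ON. In 1OFF, 2OFF, 3OFF and 7OFF it spanned 0.570 to 0.863, 0.712 to 0.773, 0.892 to 1.27 and 1.41 to 4.46. The libraries of 12ON did not overlap those of 12, 3OFF and 7OFF (exact permutation p = 0.1, the smallest possible, which cannot pass 0.05) and overlapped those of 1OFF and 2OFF (p = 0.4 and 0.7). These ratios carry the reads shared with Gm2788: with the even share taken off, the log2 difference between 12ON and 12 went from -1.27 to -0.44 (exact permutation p = 0.2), that between 3OFF and 12ON turned from 0.44 to -0.34 (p = 0.4) and that between 7OFF and 12ON went from 1.53 to 0.42 (p = 1).

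**Figure D3:**
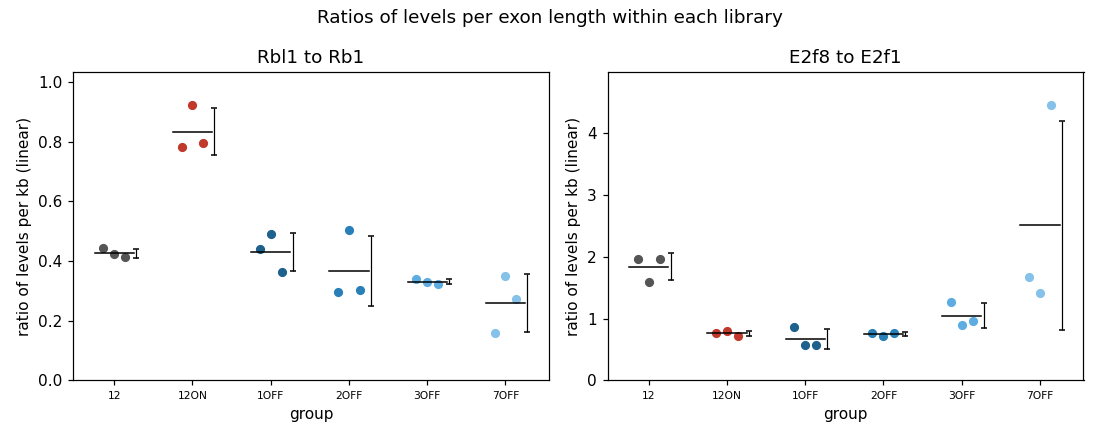
Ratio of levels per kilobase of exon within each library, Rbl1 to Rb1 and E2f8 to E2f1, by group (linear axes from 0; points are libraries, lines means, bars SD of 3). The Rbl1 to Rb1 ratio is 0.781 to 0.923 in 12ON and at most 0.503 elsewhere; the E2f8 to E2f1 ratio, which includes reads shared with Gm2788, reaches 4.46 in 1 library of 7OFF.

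Of the INK4 inhibitors, Cdkn2c (p18) had the highest level per kilobase of exon in each of the 6 groups. It was 11.2, 10.5 and 11.4 CPM in group 12 and 18.7, 19.5 and 19.1 CPM in 12ON. The groups stood well apart, with a log2 fold change of 0.79 ± 0.13 (adjusted p = 0.00014 by edgeR). In the OFF groups it was 17.0, 16.6 and 13.3 CPM in 1OFF, 17.0, 15.9 and 13.4 CPM in 2OFF, 16.3, 16.1 and 21.8 CPM in 3OFF, and 16.2, 14.4 and 14.4 CPM in 7OFF. Each of these libraries was above all 3 of group 12. Cdkn2c was called higher than in group 12 in 1OFF (0.50 ± 0.13, adjusted p = 0.0071 by edgeR), 2OFF (0.49 ± 0.13, adjusted p = 0.00782) and 3OFF (0.71 ± 0.13, adjusted p = 0.00188). In 7OFF the difference was 0.44 ± 0.13 (adjusted p = 0.0555 by edgeR). Against 12ON it fell by 0.35 in 7OFF (adjusted p = 0.0337 by edgeR), a call that was lost with the mitochondrial share as a covariate (-0.21, adjusted p = 0.27) and when any 1 library of 12ON, or replicate 2 or 3 of 7OFF, was left out (adjusted p = 0.0505 to 0.0951).

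Cdkn2a and Cdkn2b, neighbours on chromosome 4, were close to the limit of detection, with 3 to 59 and 5 to 37 reads in a library. The gene total of Cdkn2a covers the transcripts of both p16INK4a and p19ARF, which these counts do not separate. Cdkn2a measured 0.208, 0.128 and 0.237 CPM in group 12 and 0.702, 0.594 and 0.396 CPM in 12ON. The groups did not overlap, but the log2 difference of 1.53 ± 0.64 was not called (adjusted p = 0.0623 by edgeR; 0.0476 by DESeq2). It was 0.685, 1.27 and 0.299 CPM in 1OFF, 0.301, 1.19 and 0.603 CPM in 2OFF, 0.284, 0.476 and 0.840 CPM in 3OFF, and 0.105, 0.225 and 0.328 CPM in 7OFF. Libraries of a group thus differed widely, the highest being replicate 2 of 1OFF and of 2OFF. Cdkn2a was called higher than in group 12 in 1OFF (1.98 ± 0.64, adjusted p = 0.0255 by edgeR) and 2OFF (1.79 ± 0.64, adjusted p = 0.0397). Without replicate 2 of the respective group these differences were 1.40 (adjusted p = 0.139 by edgeR) and 1.15 (adjusted p = 0.203). Both calls were also lost when any library of group 12 was left out (adjusted p = 0.0528 to 0.126 by edgeR), and the 2OFF call also without 12ON replicate 2 (0.0502) or 2OFF replicate 3 (0.0544) or with the compared groups alone (0.0643).

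Cdkn2b (p15) was 0.259, 0.193 and 0.258 CPM in group 12 and 0.480, 0.594 and 0.434 CPM in 12ON. The groups were apart and the log2 fold change was 1.07 ± 0.38 (adjusted p = 0.03 by edgeR). The call was lost without any 1 of the 3 libraries of group 12 or without 12ON replicate 1 or 2 (adjusted p = 0.0507 to 0.0999 by edgeR). It was also lost by DESeq2 (1.08, adjusted p = 0.0531) and with the mitochondrial share as a covariate (0.92, adjusted p = 0.263 by edgeR). Its levels in 1OFF, 2OFF, 3OFF and 7OFF spanned 0.448 to 0.753, 0.451 to 0.934, 0.203 to 0.407 and 0.245 to 0.451 CPM. It was called higher than in group 12 in 1OFF (1.32 ± 0.38, adjusted p = 0.015 by edgeR) and 2OFF (1.42 ± 0.38, adjusted p = 0.00871), and in no OFF group against 12ON. The 1OFF call was lost without 12 replicate 2 (adjusted p = 0.0595 by edgeR) or 1OFF replicate 2 (adjusted p = 0.0714).

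Cdkn2d (p19INK4d) and Cdkn1b (p27) were called in none of the comparisons. Cdkn2d lay between 2.17 and 4.64 CPM over all libraries, with means of 3.36 ± 0.55 CPM in group 12 and 3.82 ± 0.12 CPM in 12ON and a log2 difference of 0.17 ± 0.20 (adjusted p = 0.503 by edgeR). Its libraries of 7OFF, 3.25 to 3.54 CPM, were all below those of 12ON, by a difference of -0.17 ± 0.20 (adjusted p = 0.522 by edgeR). Cdkn1b, which restrains cyclin E and cyclin A kinases, was at 6.46 CPM per kb of exon over all libraries, beside 5.85 for Cdkn2c, 2.39 for Rb1 and 0.42 for Cdkn2a. Its order with Cdkn2c turned between groups, Cdkn1b having the higher mean in 4 groups and Cdkn2c in 12ON (7.11 beside 6.98 CPM per kb) and 3OFF (6.72 beside 6.60). It was 28.5, 32.0 and 24.7 CPM in group 12 and 32.9, 32.9 and 29.6 CPM in 12ON, which overlap. The log2 difference was 0.16 ± 0.11 (adjusted p = 0.243 by edgeR). In the OFF groups it ranged from 24.6 to 32.6 CPM.

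**Figure D4:**
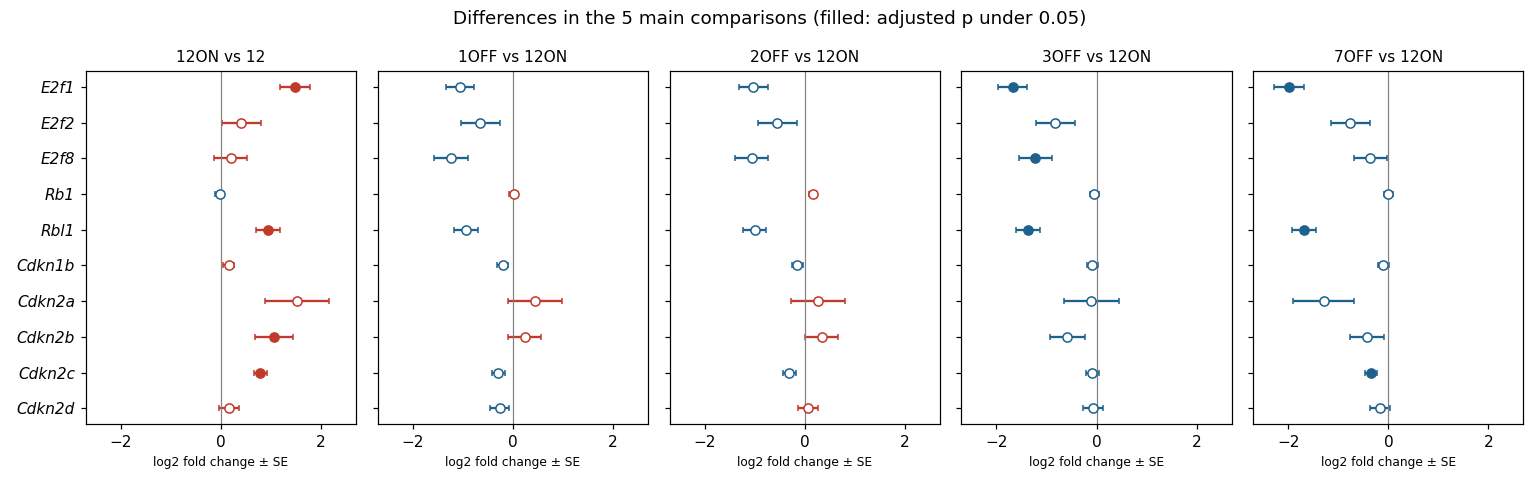
Log2 fold change with its SE for the 10 genes in the 5 main comparisons; filled symbols have an adjusted p under 0.05 in edgeR's quasi-likelihood test, red is higher and blue lower in the first-named group. E2f1 and Rbl1 are above 0 in 12ON against 12 and below 0 in the other 4 comparisons, filled in 3OFF and 7OFF.

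Counted together, 4 of the 10 genes were called in 12ON against 12, all higher (Cdkn2b, Cdkn2c, Rbl1 and E2f1), where 46.6% of all tested genes were called and 24.0% were called higher. Their median log2 difference was 0.60 and that of all genes 0.00. In 5 of 10 the groups did not overlap, beside 58.2% of all genes, so the share of these genes that differed was near that of the whole transcriptome. In 3OFF against 12ON 3 were called, all lower (Rbl1, E2f1 and E2f8), beside 32.3% of all genes called and 17.0% called lower. In 7OFF against 12ON 3 were called, all lower (Cdkn2c, Rbl1 and E2f1), beside 44.0% called and 22.7% called lower. The libraries were apart for 4 of the 10 in 3OFF and 6 in 7OFF, all lower than 12ON, beside 51.4% and 54.0% of all genes. The 4 OFF comparisons share the 12ON libraries, which the first comparison also uses, so their directions are not independent. Scaling by library totals alone raised the number called to 8 in 12ON against 12, 7 in 3OFF and 8 in 7OFF against 12ON. That scaling shifted the median of all genes by 0.49, -0.32 and -0.42 in these 3 comparisons, and the share of called genes that were higher in 12ON against 12 went from 51.4% to 86.7%.

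In 1OFF and 2OFF against 12ON none of the 10 genes was called by edgeR, beside 0.00562% of all genes in 1OFF and 0% in 2OFF. The gene called in 1OFF was Gm26714 (log2 1.81 ± 0.25, adjusted p = 0.039 by edgeR), named after its value was seen. At an unadjusted p under 0.05, edgeR passed 2568 genes in 1OFF and 3039 in 2OFF, and Cdkn2c, Rbl1, E2f1 and E2f8 in both. The groups did not overlap for those 4 genes in either comparison, beside 27.3% of all genes in 1OFF and 21.5% in 2OFF. DESeq2 called 514 and 919 genes, among them Rbl1, E2f1 and E2f8 in both. Replicate 2 of 2OFF stood above its group for E2f1, Rbl1 and E2f8. Without it edgeR called 349 genes in 1OFF and 1505 in 2OFF, again including Rbl1, E2f1 and E2f8 in both (adjusted p = 0.0239, 0.00803 and 0.0305 in 1OFF and 0.00291, 0.000567 and 0.00811 in 2OFF). As the highest 2OFF library for these 3 genes, its omission makes their fall in 2OFF larger by construction. It is not a library of the 1OFF comparison, which it enters only through the shared fit. No other omission of 1 library called any of the 10 genes in these comparisons. The log2 differences were nearly the same by edgeR and DESeq2 (for E2f1 in 1OFF, -1.05 by each). Between these tools the calls and not the sizes differed. Leaving out 2OFF replicate 2 did change the sizes in 2OFF, which grew to -1.61 for E2f1, -1.35 for Rbl1 and -1.59 for E2f8. In 1OFF they stayed near the main values without that library, at -1.06, -0.94 and -1.24. The 1OFF calls of the 3 genes were also made with the compared groups alone (adjusted p = 0.0413 to 0.0435 by edgeR), and that of Rbl1 in 2OFF with a replicate block (0.0282).

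Set against group 12 instead, the OFF groups show which genes stood near the level of day 12 without activation. E2f1 and Rbl1 were called in none of the 4, with log2 differences of 0.43 ± 0.29 and 0.01 ± 0.24 in 1OFF and -0.50 ± 0.30 and -0.73 ± 0.24 in 7OFF (adjusted p = 0.275, 0.972, 0.357 and 0.0887 by edgeR). In 1OFF 4 of the 10 genes were called (Cdkn2a, Cdkn2b and Cdkn2c higher, E2f8 lower), beside 33.4% of all genes, 17.1% higher and 16.3% lower. In 2OFF 3 were called (Cdkn2a, Cdkn2b and Cdkn2c higher), beside 35.1% in all and 18.1% higher. In 3OFF 2 were called (Cdkn2c higher, E2f8 lower), beside 17.4% in all, 9.47% higher and 7.95% lower. In 7OFF none was called by edgeR, beside 5.77% of all genes; Cdkn2c and Rbl1 had an unadjusted p under 0.05, and DESeq2 called both. Libraries were apart from group 12 for 5 of the 10 genes in 1OFF, 4 in 2OFF, 4 in 3OFF and 3 in 7OFF, beside 48.5%, 45.0%, 34.7% and 22.9% of all genes. The called inhibitors of 1OFF and 2OFF were above group 12. E2f1 was not called, yet its differences (0.43 ± 0.29 and 0.46 ± 0.29) were close to those of Cdkn2c (0.50 ± 0.13 and 0.49 ± 0.13). Every E2f1 library of 1OFF was above every library of group 12. Without 2OFF replicate 1, the lowest of its group, E2f1 was called higher in 2OFF (0.75, adjusted p = 0.0419 by edgeR). Rbl1 differed from group 12 by 0.01 ± 0.24 and -0.05 ± 0.24. A call for 1 gene and none for another does not show that they differ. The lower E2f8 level in 1OFF (-1.04 ± 0.34, adjusted p = 0.0273 by edgeR) and 3OFF (-1.03 ± 0.34, adjusted p = 0.0466) was -0.39 and -0.95 with the share of Gm2788 taken off (adjusted p = 0.576 and 0.205). The 1OFF call was lost without 12 replicate 1 or 3 or 1OFF replicate 2 or 3 (adjusted p = 0.0538 to 0.091 by edgeR). The 3OFF call was lost without any library of groups 12, 12ON, 1OFF or 3OFF, or 2OFF replicate 3 (adjusted p = 0.051 to 0.141). With the mitochondrial share as a covariate none of the 10 genes was called in any of these 4 comparisons, though the sizes moved differently. Of all genes 1847, 1900, 731 and 417 were called in that fit. The mitochondrial share was lower in every library of group 12 than in any other library, so this fit cannot tell it from the group. In 1OFF and 2OFF Cdkn2b then stood at 1.15 and 1.26, Cdkn2a at 0.99 and 0.89, and Cdkn2c at 0.25 and 0.24, with Cdkn2c at 0.50 in 3OFF. E2f8 was further below group 12, at -1.54 in 1OFF and -1.44 in 3OFF.

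The latest and earliest OFF groups were also compared directly. In 7OFF against 1OFF 3 of the 10 genes were called, all lower, beside 30.6% of all genes called and 15.8% called lower. E2f1 fell by 0.93 (SE 0.30, adjusted p = 0.0264 by edgeR), Rbl1 by 0.75 (SE 0.24, adjusted p = 0.0282) and Cdkn2a by 1.75 (SE 0.60, adjusted p = 0.0375). The libraries were apart for E2f1 and Rbl1, and for E2f8, which was higher in 7OFF and not called, beside 43.8% of all genes, and overlapped for Cdkn2a. None of the 3 calls was kept without 1OFF replicate 1, 1OFF replicate 2 or 7OFF replicate 1 (adjusted p = 0.0502 to 0.202 by edgeR). Cdkn2a was also lost without 7OFF replicate 2 (adjusted p = 0.0905 by edgeR) and E2f1 without 7OFF replicate 3 (0.0909). With the mitochondrial share as a covariate all 3 were lost (adjusted p = 0.0855 to 0.263 by edgeR), and with the compared groups alone Cdkn2a and Rbl1 were lost (0.0665 and 0.0711). Without 1OFF replicate 2 the Cdkn2a difference was -1.17.

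Genes that act with or downstream of these 10 were counted from lists. Of 30 E2F target genes of replication 27 rose and none fell in 12ON against 12, with a median log2 difference of 1.83, beside 24.0% of all tested genes called higher and a median of 0.00. The replication licensing factor Cdt1 went from 3.64 ± 0.90 to 21.4 ± 3.31 CPM (2.55 ± 0.26, adjusted p = 3.5e-06 by edgeR). Mcm6, a subunit of the replicative helicase, went from 10.5 ± 1.66 to 78.5 ± 11.2 CPM, and Pcna, the polymerase clamp, from 20.7 ± 1.28 to 57.1 ± 9.51 CPM. Against 12ON, 27 of the 30 fell in 3OFF (median -1.82) and 28 in 7OFF (median -1.96), and none rose, beside 17.0% and 22.7% of all genes called lower. In 1OFF and 2OFF none was called, with medians of -0.995 and -1.10.

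**Figure D5:**
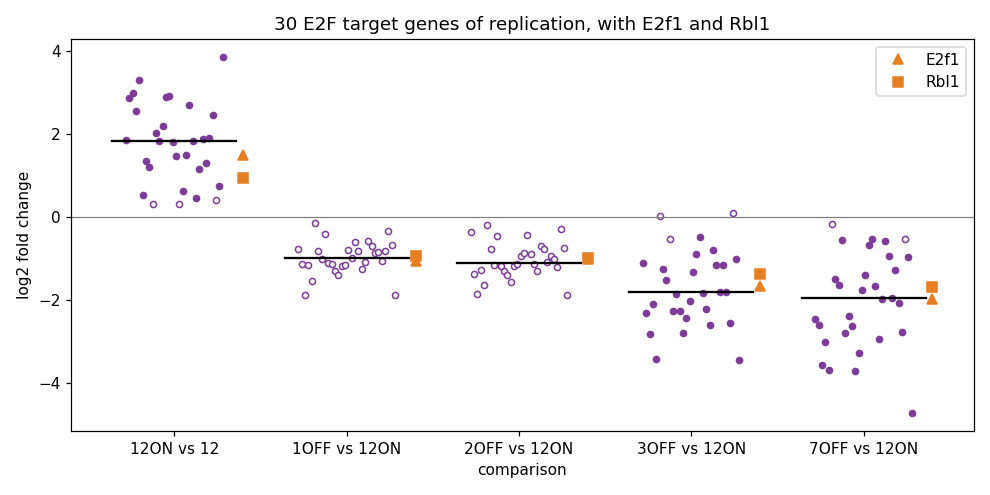
Log2 fold change of 30 E2F target genes of replication in the 5 main comparisons (purple, filled where the adjusted p is under 0.05; black line, their median), beside E2f1 (triangle) and Rbl1 (square). The median is 1.83 in 12ON against 12 and -1.96 in 7OFF against 12ON; E2f1 and Rbl1 lie on the same side of 0 as the median in each comparison.

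The counts of the smaller lists below stand beside 46.6% of all tested genes called in 12ON against 12, 24.0% being called higher, and several are near those shares. Of 7 other E2F and DP genes 4 rose and none fell. Tfdp1, the dimerisation partner of the E2Fs, went from 18.9 ± 1.92 to 48.6 ± 5.54 CPM (log2 1.36 ± 0.15), and the activator E2f3 from 5.99 ± 1.71 to 15.2 ± 1.95 CPM (1.33 ± 0.18). E2f4 and E2f5, which work with p107 and p130 as repressors, rose by 0.56 and 0.41. Of 9 pocket protein and MuvB partners 4 rose and 2 fell. Mybl1 (4.71 ± 0.49), Foxm1 (2.93 ± 0.41) and Mybl2 (2.55 ± 0.40), factors of late cell cycle genes, and the MuvB subunit Lin9 (1.11 ± 0.18) were higher. Rbl2, which encodes the third pocket protein p130, fell by 0.51 (SE 0.19, adjusted p = 0.0333 by edgeR), and the MuvB subunit Lin52 fell by 0.47. Rbl2 was higher than in 12ON in 3OFF (0.77 ± 0.19, adjusted p = 0.00552 by edgeR) and 7OFF (0.87 ± 0.19, adjusted p = 0.00147). The 3 pocket protein transcripts therefore differed: Rbl1 was higher and Rbl2 lower in 12ON than in 12, and Rb1 was not called.

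Of 12 G1 cyclin and kinase genes 6 rose in 12ON against 12 and none fell, among them Cdk6 (1.14 ± 0.11), Ccne1 (2.85 ± 0.36), Cdc25a (1.77 ± 0.26) and Ccna2 (2.45 ± 0.38). In 3OFF and in 7OFF 6 of the 12 fell below 12ON, beside 17.0% and 22.7% of all genes called lower. Of 6 other CDK inhibitors and CDK-binding proteins 3 rose (Cks2, 1.39 ± 0.14; Cdkn3, 3.19 ± 0.60; Cks1b, 1.22 ± 0.28) and 1 fell (Ccndbp1, -0.34 ± 0.12). Of 11 tested genes for turnover of p27 and E2F proteins 5 rose and 2 fell. Skp2, which marks p27 for destruction, rose by 1.61 ± 0.24, while Cdkn1b itself was not called. Cdc20 (3.27 ± 0.54), Ubac1 (0.64 ± 0.10) and Fzr1 (0.52 ± 0.08) rose, and the ubiquitin ligase genes Rnf123 and Cul1 both fell by 0.37. Of 15 Polycomb and other regulators of the Cdkn2a locus 3 rose and 1 fell. The Polycomb methyltransferase Ezh2 (1.53 ± 0.20), its partner Suz12 (0.73 ± 0.11) and the demethylase Kdm6b (0.37 ± 0.11) were higher, and the repressor Tbx3 was lower (-1.95 ± 0.25). Of 6 tested FOXO factors and other regulators of Cdkn1b none rose and 3 fell: Foxo4 (-0.50 ± 0.09), Akt2 (-0.39 ± 0.09) and Cebpa (-0.77 ± 0.20). The median of all tested genes was 0.00 in this comparison.

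The tested genes nearest in profile to each member were found by the root mean square difference between mean-centred log2 CPM over the 18 libraries, among 14250 genes with a mean of at least 1 CPM. For Rbl1 the nearest were Timeless (0.165), Mtbp (0.191) and Gm44335 (0.25), for a gene whose own SD over the libraries was 0.61. For E2f1 (own SD 0.71) they were Pcna-ps2 (0.220), Pcna (0.257) and Dnmt1 (0.263), of which Pcna-ps2 is a pseudogene copy of Pcna whose reads may be shared with it. For E2f8 (own SD 0.64) Pola1, Tipin and Cep41 came first, at 0.331, 0.374 and 0.407, and for E2f2 (own SD 0.54) Jpt2, Gm12355 and Nbeal2, at 0.332, 0.342 and 0.347. The E2f8 profile is that of the gene as counted and includes the reads shared with Gm2788. Cdkn2c was followed most closely by Usp28 (0.113), Idh3a (0.127) and Gpd1l (0.131), beside an own SD of 0.29. For Cdkn2a the nearest, Abcc4 (0.488), Anxa2 (0.491) and Capg (0.508), were far in comparison, and for Cdkn2b they were Cxadr (0.271), Pdgfa (0.302) and Col12a1 (0.305). The nearest to Cdkn2d (own SD 0.24) were Fbxo45 (0.179), Rhno1 (0.180) and Cnot10 (0.188). For Rb1 (Pdcd6ip, 0.076; Herc1, 0.078; Sec22a, 0.080) and Cdkn1b (Emc8, 0.086; Dcun1d5, 0.10; Gpaa1, 0.104) the small distances go with the small own SD of 0.10 and 0.13, and any gene that hardly varies is near them. The libraries share groups and depth, so these distances describe likeness only.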

How the data were processed

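RNA from 18 mouse livers was sequenced as poly-A, single-end 50 nt libraries, 3 mice for each of 6 groups. The submitters' processing notes name Trim Galore, TopHat2 and mm10. The deposited values are raw counts per gene from featureCounts 1.5.0-p1, which used the exons in Ensembl 82 (GRCm38), per the file headers. Counting was without strand, needed 10 bases of overlap, gave a read to each gene it overlapped and left out reads with several alignments, per the file headers. Of 34937 gene IDs, 34599 had a symbol in the gene name table used.

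Depth was 23.1 to 75.3 M counts, and 19763 to 22315 genes had at least 1 count. The chi-square per gene between replicates was 31.6 to 287, so no library was a copy of another. Counts were fitted with edgeR 4.0.16 in R 4.3.3 (filterByExpr at a minimum count of 10, TMM scaling, 1 quasi-likelihood fit of 6 groups over 18 libraries, biological coefficient of variation 0.202). Tests were two-sided with Benjamini-Hochberg adjustment over 17789 genes at 0.05. SE was taken as log2 fold change over the square root of F. Tested on simulated data for 12ON against 12 (17551 genes), the fit recovered 8% of genes changed 1.5-fold, 64% at 2-fold and 100% at 4-fold and 8-fold, with 8 false calls. For 7OFF against 12ON (17586 genes) it recovered 18%, 50%, 88% and 100%, with 7 false calls. In each simulation 50 genes at each fold were raised in the first-named group and all others were left unchanged. In the data 46.6% and 44.0% of genes were called in these comparisons. The simulated shares therefore cannot be read as the power of the real tests. Ratios within libraries were compared by exact permutation tests.

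The 10 genes, the lists and the tests were chosen with earlier results of these data known. The text names the 10 genes, Myc, Esr1 and albumin as checks, up to 4 genes of each list in each direction with the smallest p in 12ON against 12, and the 3 nearest profiles per member. Exceptions are named for their role beside a member: Rbl2 in other comparisons, the genes that overlap members, and Gm26714. The alternatives were other scalings, DESeq2 1.42.0, no filter, the 2 groups alone, a replicate block, stricter thresholds, terms for Xist and for the mitochondrial share, leaving out each library, and taking off reads shared with overlapping genes, which was added after seeing the data. Promoter sequences are from RefSeq (GRCm38.p6). Protein sequences were not used here.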

Additional observations from a re-analysis of the deposited data

Results flagged for a closer look

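The contrast with 12ON differed between the latest and earliest OFF time points for 3 of the 10 genes, all lower at the latest. Of all tested genes 30.6% differed in this way and 15.8% were lower, so the share among the 10 was near that of all genes. This was tested directly as 7OFF against 1OFF, in which the shared 12ON libraries cancel. The log2 differences were -1.75 for Cdkn2a, -0.75 for Rbl1 and -0.93 for E2f1, with adjusted p = 0.0375, 0.0282 and 0.0264 by edgeR. For Cdkn2a the contrasts with 12ON were 0.45 ± 0.53 in 1OFF and -1.30 ± 0.60 in 7OFF, neither of them called. For Rbl1 they were -0.93 ± 0.24 and -1.68 ± 0.24, and for E2f1 -1.05 ± 0.29 and -1.98 ± 0.30. Cdkn2a rests on 3 to 59 reads in a library, and without 1OFF replicate 2 its difference was -1.17. None of the 3 calls was kept without 1OFF replicate 1, 1OFF replicate 2 or 7OFF replicate 1 (adjusted p = 0.0502 to 0.202 by edgeR) or with the mitochondrial share as a covariate (0.0855 to 0.263), and with the compared groups alone Cdkn2a and Rbl1 were lost (0.0665 and 0.0711). In groups of 3 no single library was tested as standing apart from its group.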

How the results depend on the processing

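The alternatives gave 2898 values for single members: 2732 stayed on their side of the threshold (93 of these, called in neither, changed sign), 104 lost a call, 60 gained one and 2 reversed. Scaling by library totals alone reversed Rb1 in 12ON against 12 (0.48) and Cdkn1b in 1OFF against 12 (0.32). Members called then numbered 8 in 12ON against 12, 7 and 8 in 3OFF and 7OFF against 12ON, and 7 and 1 in 2OFF and 3OFF against 12. In the same order 10533, 7478, 9552, 8450 and 3657 of all 17789 genes were called. DESeq2 called 3 in 1OFF and 3 in 2OFF against 12ON and 2 in 7OFF against 12, beside 514, 919 and 1668 genes in all. With the compared groups alone, 3 were called in 1OFF and 5 in 7OFF against 12ON, and 1 in 7OFF against 1OFF. Genes called in all were 189, 6841 and 4214. At an adjusted p under 0.01, 1 was called in each of 1OFF and 3OFF against 12, and 0 in 7OFF against 1OFF. All genes gave 3499, 1249 and 3014 calls there. Tested against a 1.5-fold change, 1 remained in 12ON against 12 (E2f1) and 0 in 1OFF, 2OFF and 3OFF against 12 and in 7OFF against 1OFF. Of all genes 2892, 1417, 1553, 321 and 934 remained. With the mitochondrial share as a covariate, 2 were called in 12ON against 12 (4117 genes, beside 8298), and 0 in 1OFF, 2OFF and 3OFF against 12 and in 7OFF against 1OFF (1847, 1900, 731 and 3372 genes). That share itself differed between groups, so these losses do not tell it from the group. With an Xist covariate 1 was called in 3OFF and 1 in 7OFF against 12 (3160 and 1027 genes). With no filter on low counts, or with shared reads taken off, 1 was called in 3OFF against 12 (2665 and 3098 genes). Taking off shared reads moved the log2 ratio difference of E2f8 to E2f1 to -0.44 in 12ON against 12, and against 12ON to -0.34 in 2OFF, -0.34 in 3OFF and 0.42 in 7OFF; the Rbl1 to Rb1 ratio kept its direction.

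Leaving out 1 library at a time, members called ranged from 3 to 5 in 12ON against 12. Against 12ON, 1OFF and 2OFF each gave 0 to 3, 3OFF gave 3 to 4 and 7OFF gave 2 to 4. Against 12, 1OFF gave 1 to 4, 2OFF gave 2 to 4, 3OFF gave 1 to 2 and 7OFF gave 0 to 1, and 7OFF against 1OFF gave 0 to 4. A group left with 2 libraries borrows the spread of the others. Groups share replicate numbers that pair nothing in the labels: libraries of the same number correlated above 0.1 in 12 of 45 pairs, and 12 of 18 libraries were nearest to one of their own number. The median correlation was 0.008 for pairs of the same number and -0.012 for pairs of other numbers, so a pairing by number is not shown. With a replicate block, members called were 4, 0, 1, 3 and 3 in the 5 main comparisons, Rbl1 passing in 2OFF against 12ON (adjusted p = 0.0282 by edgeR), and 1 in 3OFF against 12, where E2f8 was lost (0.0616); genes called went from 1 to 18 in 1OFF and from 0 to 439 in 2OFF against 12ON. Cdkn2a and Cdkn2b, with 3 to 59 reads a library, are limited by depth.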
